A study of Homo sapiens with 2 samples.

Results

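The 9 genes described here write, remove or read methylation of cytosine in DNA: the methyltransferases DNMT1, DNMT3A and DNMT3B, the TET1, TET2 and TET3 dioxygenases, and the readers UHRF1, UHRF2 and MBD2. They were chosen by gene symbol from the 27685 genes of a deposited RNA-seq table, and each symbol was found once. The transcript table held 30 transcripts of these genes among 63714. The data were 1 library of H2087 cells and 1 library of H596 cells, both untreated cultures labelled as lung adenocarcinoma, grown in RPMI medium with serum. Each is a single established cell line, so the comparison is between 2 libraries and has no replicate check. DNA methylation itself was not measured.

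In mammals, cytosines of CpG dinucleotides are methylated by DNMT3A and DNMT3B on unmethylated DNA, and DNMT1 copies the pattern onto the new strand after replication. UHRF1 binds the hemimethylated sites and brings DNMT1 to them. The TET enzymes oxidize 5-methylcytosine, the first step of active demethylation, and methyl-CpG binding proteins such as MBD2 recruit repressor complexes to methylated promoters. In lung tumors this machinery is known for the silencing of tumor suppressor promoters.

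Abundance is given as FPKM, fragments per kilobase of transcript scaled to library size, which corrects for transcript length and allows genes to be set side by side. The total estimated counts were 46961500 in H2087 and 55387847 in H596. Each interval in the text is a 95% Wilson interval of a count share, carried over to FPKM where an FPKM is given, and intervals of ratios were computed from the counts on the log scale. All of them cover counting error only. For 9 of the 9 genes, the gene value was the sum over its transcripts to within 0.001 FPKM. The labelled tissue was checked against marker genes. NKX2-1, the transcription factor of lung adenocarcinoma, stood at 110.0 FPKM in H2087 and at 0.508 in H596, and NAPSA stood at 21.9 and 0.0645 FPKM. Of 5 squamous markers, 4 were at least 2-fold higher in H596, among them TP63 at 0.183 and 55.2, while KRT7 was high in both at 791 and 608. Of 7 compared glandular markers, 5 were at least 2-fold lower in H596. The H596 library thus went partly against its adenocarcinoma label, and the part of this in the differences below was not tested. Of the markers of other cells, those of blood were at 0 counts in both libraries for PTPRC, CD3E and HBB, and CD68 stood at 128 FPKM in H2087 and at 25.6 in H596. The 3 endothelial markers had an FPKM of at most 0.489, and among 5 fibroblast markers the highest was DCN at 9.77 in H596.

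Sequences are shown for the DNMT3B exons whose use separated the libraries and for the DNA before 3 start sites. Exon structures came from GENCODE release 44 on GRCh37, the build of the deposited positions. The outer ends of each annotated structure were set to the deposited start and end. After that, 27 of the 30 transcripts matched a structure in length, so the match rests on length alone. Exon 10 of DNMT3B transcript NM_006892 lies at chr20:31381342-31381401 on the plus strand, and exons 21 and 22 lie at chr20:31393144-31393213 and chr20:31394015-31394133. Exon 10 has 60 bases, which are 20 codons, and exons 21 and 22 together have 189 bases, which are 63 codons, so their loss leaves the reading frame intact. In the spliced sequences below, capitals mark the optional exons and lower case marks 20 bases of each exon beside them.
exon 10 included: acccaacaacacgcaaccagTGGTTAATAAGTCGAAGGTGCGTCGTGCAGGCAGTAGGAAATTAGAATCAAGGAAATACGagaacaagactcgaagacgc
exon 10 skipped: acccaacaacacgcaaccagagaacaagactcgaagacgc
exons 21 and 22 included: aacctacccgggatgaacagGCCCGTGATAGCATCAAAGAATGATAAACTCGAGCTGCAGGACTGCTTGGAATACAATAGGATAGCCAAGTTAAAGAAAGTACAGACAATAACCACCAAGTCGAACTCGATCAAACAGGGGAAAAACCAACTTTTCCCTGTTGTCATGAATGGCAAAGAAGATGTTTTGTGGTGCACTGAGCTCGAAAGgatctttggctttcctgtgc
exons 21 and 22 skipped: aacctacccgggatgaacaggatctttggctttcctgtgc

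The 250 bases before a start site are shown for MBD2, for the inner start of DNMT3A, whose transcripts separated the libraries, and for the outer start of TET2, that of NM_017628. This TET2 start is not the one whose transcript was higher in H596. That one, the start of NM_001127208, is not printed because all 250 bases before it overlap an annotated exon. They are read in the direction of transcription and capitals mark CpG dinucleotides. The TET2 window, chr4:106066782-106067031, is on the plus strand, and the MBD2 window, chr18:51751159-51751408, and the DNMT3A window, chr2:25475185-25475434, are on the minus strand of hg19.
TET2 before NM_017628: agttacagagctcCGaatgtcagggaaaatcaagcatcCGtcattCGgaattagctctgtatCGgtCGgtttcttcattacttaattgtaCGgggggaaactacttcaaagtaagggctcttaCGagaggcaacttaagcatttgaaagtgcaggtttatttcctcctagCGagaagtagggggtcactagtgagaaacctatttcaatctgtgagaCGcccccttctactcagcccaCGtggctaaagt
MBD2 before NM_003927: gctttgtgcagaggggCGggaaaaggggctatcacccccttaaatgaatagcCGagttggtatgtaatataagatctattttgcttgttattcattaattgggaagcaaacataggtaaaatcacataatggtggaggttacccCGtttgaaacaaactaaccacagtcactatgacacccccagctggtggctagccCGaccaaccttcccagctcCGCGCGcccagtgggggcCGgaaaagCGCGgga
DNMT3A before NM_153759: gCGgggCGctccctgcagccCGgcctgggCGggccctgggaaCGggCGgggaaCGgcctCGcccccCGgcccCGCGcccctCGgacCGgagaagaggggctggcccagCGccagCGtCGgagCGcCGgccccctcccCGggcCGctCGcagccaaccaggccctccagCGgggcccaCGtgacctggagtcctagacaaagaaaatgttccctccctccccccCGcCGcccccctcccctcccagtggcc
The TET2 and MBD2 windows each held 10 CpG dinucleotides, and the DNMT3A window held 25. The median over the starts of 12124 genes with a strand in the annotation and a mean FPKM of 1 or more was 19. The window before TET2 NM_001127208, the transcript that was higher in H596, held 29, more than 78.6% of these genes. The printed TET2 and MBD2 windows each held more than 17.5% of them, although MBD2 was also higher in H596, and the DNMT3A window held more than 67.3%. A link between these counts and the levels was not tested.

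The genes of maintenance methylation, DNMT1 and UHRF1, and the related UHRF2 were nearly equal in both libraries. DNMT1 (gene 1786, chr19:10244020-10305811) stood at 41.7 FPKM in H2087 (95% interval, 40.9 to 42.5) from 10666 counts. In H596 its FPKM was 41.8 (95% interval, 41.1 to 42.6) from 12689 counts. It was the highest of the 9 genes in both libraries and lay above 93.3% of all listed genes in each. In bulk RNA of a culture, fewer cells with a transcript and less of it per cell cannot be told apart.

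UHRF1 (gene 29128, chr19:4903092-4962165), the partner that brings DNMT1 to replicated DNA, stood at 17.7 FPKM in both libraries, from 3376 counts in H2087 and 3984 in H596. UHRF2 (gene 115426, chr9:6413151-6507051), a relative that is known to bind 5-hydroxymethylcytosine, stood at 10.4 FPKM in H2087 (95% interval, 9.92 to 10.9) and at 10.1 in H596 (95% interval, 9.68 to 10.5). For each of these 3 genes the intervals of the libraries overlapped. The 95% interval of the ratio of H596 to H2087 ran from 0.979 to 1.03 for DNMT1, from 0.957 to 1.05 for UHRF1 and from 0.913 to 1.04 for UHRF2. The sign of these small differences depended on how the libraries were scaled, and over all alternatives that of DNMT1 ranged from -0.25, with its highest single transcript, to 0.19, with TPM, on the log2 scale.

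The proportions within a library, which do not depend on how the libraries are scaled to each other, were also close. DNMT1 was 2.35 times UHRF1 in H2087 (95% interval, 2.26 to 2.44) and 2.36 times in H596 (95% interval, 2.27 to 2.44). UHRF1 was 1.70 times UHRF2 in H2087 and 1.76 times in H596, with overlapping intervals.

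Because DNMT1 and UHRF1 are known to be made mainly in S phase, 16 genes of replication and cycling were set beside them. Their median difference, H596 minus H2087 on the log2(FPKM + 1) scale, was 0.14, against 0.12 for all 13048 genes whose mean FPKM reached 1. Of the 16, 1 was at least 2-fold higher in H596, where 18.2% of all compared genes were, and 0 were at least 2-fold lower, where 14.2% were. The 1 was CCNE2, cyclin E2, at 4.85 FPKM in H2087 and at 21.4 in H596. Of the 16 differences, 10 were above 0 and 6 below, and those short of 2-fold ran from -0.97 for CDT1 to 0.97 for PCNA. MKI67, a marker of cycling cells chosen after its values were seen, stood at 31.1 FPKM in H2087 and at 35.4 in H596.

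**Figure D1:**
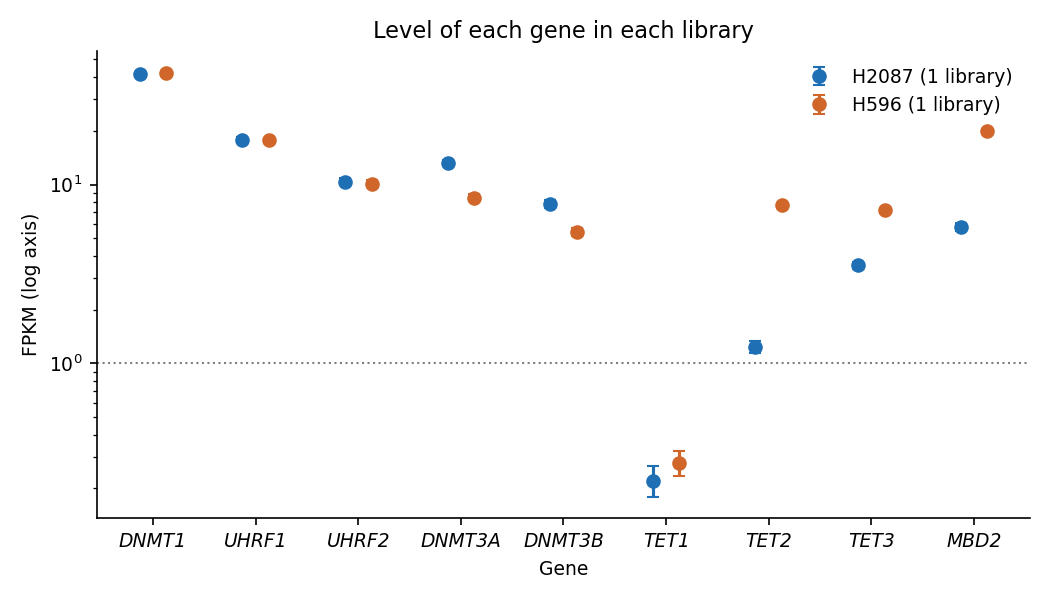
FPKM of each of the 9 genes on a log axis, in H2087 (blue) and H596 (orange), 1 library each; bars are 95% Wilson intervals and are hidden by most points, and the dotted line marks an FPKM of 1. DNMT1, UHRF1 and UHRF2 coincide in both libraries, DNMT3A and DNMT3B are higher in H2087, and TET2, TET3 and MBD2 are higher in H596.

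Both de novo methyltransferases were lower in H596. DNMT3A (gene 1788, chr2:25455830-25565459) stood at 13.2 FPKM in H2087 (95% interval, 12.7 to 13.7) from 2464 counts and at 8.43 in H596 (95% interval, 8.06 to 8.81) from 1923 counts. DNMT3B (gene 1789, chr20:31350191-31397162), its relative with a role in pericentromeric repeats, stood at 7.76 FPKM in H2087 (95% interval, 7.39 to 8.16) and at 5.42 in H596 (95% interval, 5.13 to 5.72). The intervals of the libraries did not overlap for either gene. H2087 exceeded H596 by 1.56 times for DNMT3A (95% interval, 1.47 to 1.66) and by 1.43 times for DNMT3B (95% interval, 1.33 to 1.54).

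On the log2(FPKM + 1) scale the differences were -0.59 for DNMT3A and -0.45 for DNMT3B, so neither reached 2-fold, a limit that 14.2% of the compared genes passed on the lower side. Of all compared genes, 23.9% were as low as DNMT3A and 28.1% as low as DNMT3B. The proportion of the 2 genes had overlapping intervals: DNMT3A was 1.70 times DNMT3B in H2087 (95% interval, 1.59 to 1.81) and 1.55 times in H596 (95% interval, 1.45 to 1.67). DNMT1 was 3.17 times DNMT3A in H2087 and 4.96 times in H596, with intervals that did not overlap.

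The cytosine oxidases were the 3 least abundant of the 9 genes in H2087, and TET2 showed the widest difference between the libraries. TET2 (gene 54790, chr4:106067032-106200960) stood at 1.23 FPKM in H2087 (95% interval, 1.14 to 1.34) from 569 counts, and at 7.69 in H596 (95% interval, 7.46 to 7.92) from 4261 counts. H596 thus exceeded H2087 by 6.22 times for TET2 (95% interval, 5.70 to 6.79). TET3 (gene 200424, chr2:74213531-74335302) stood at 3.54 FPKM in H2087 (95% interval, 3.38 to 3.70) and at 7.17 in H596 (95% interval, 6.97 to 7.38), a ratio of 2.03 (95% interval, 1.92 to 2.14).

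TET1 (gene 80312, chr10:70320117-70454239), which is best known from embryonic stem cells, was at a low level in both libraries. Its FPKM was 0.219 in H2087 (95% interval, 0.180 to 0.266) from 101 counts and 0.277 in H596 (95% interval, 0.236 to 0.325) from 151 counts, and the intervals overlapped. It was the 1 gene of the 9 that missed the filter of a mean FPKM of at least 1, so 8 were compared with all genes.

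The make-up of the TET family differed as well. In H2087, TET3 held 70.9% of the summed TET FPKM and TET2 held 24.7%. In H596, TET2 held 50.8% and TET3 held 47.4%. TET3 was 2.86 times TET2 in H2087 (95% interval, 2.61 to 3.14) and 0.933 times TET2 in H596 (95% interval, 0.895 to 0.972), so their order by FPKM was opposite. By counts, TET3 exceeded TET2 in both libraries, with 1930 against 569 in H2087 and 4632 against 4261 in H596. The order in H596 thus depends on the listed transcript lengths, 11387 bases for TET3 and 9780 for the main TET2 transcript. The intervals do not cover an error in these lengths. The summed FPKM of the 3 TET genes was 4.99 in H2087 and 15.1 in H596, a ratio of 3.03 (95% interval, 2.90 to 3.17). The summed FPKM of the 3 DNMT genes was 62.6 in H2087 and 55.7 in H596. The DNMT sum was therefore 12.5 times the TET sum in H2087 and 3.68 times in H596.

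MBD2 (gene 8932, chr18:51677971-51751158), the methyl-CpG reader of the NuRD repressor complex, stood at 5.82 FPKM in H2087 (95% interval, 5.52 to 6.12) from 1442 counts. In H596 its FPKM was 19.8 (95% interval, 19.3 to 20.4) from 5843 counts. H596 exceeded H2087 by 3.41 times (95% interval, 3.22 to 3.62). MBD2 ranked 8237 among all genes in H2087 and 4038 in H596. It stood at 0.328 times UHRF1 in H2087 (95% interval, 0.309 to 0.349) and 1.12 times in H596 (95% interval, 1.07 to 1.16).

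Read against all compared genes, 2 of the 8 genes, TET2 and MBD2, were at least 2-fold higher in H596 on the log2(FPKM + 1) scale, where 18.2% of the 13048 genes were, and 0 of the 8 were at least 2-fold lower, where 14.2% were. The differences were 1.96 for TET2 and 1.61 for MBD2, and 5.63% and 8.47% of the compared genes were as high. TET3 differed by 0.85 on this scale, short of 2-fold, although its plain FPKM ratio was 2.03. The added 1 FPKM understates the change of low genes. The median of the 8 differences was 0.00, against 0.12 for all compared genes. At a limit of 1.5-fold, 3 of the 8 were higher (TET2, TET3 and MBD2), where 30.6% of all compared genes were, and 1 was lower (DNMT3A), where 24.0% were. In either direction, 32.4% of all compared genes passed 2-fold and 54.6% passed 1.5-fold, so these counts say nothing particular about the 8 genes as a group.

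**Figure D2:**
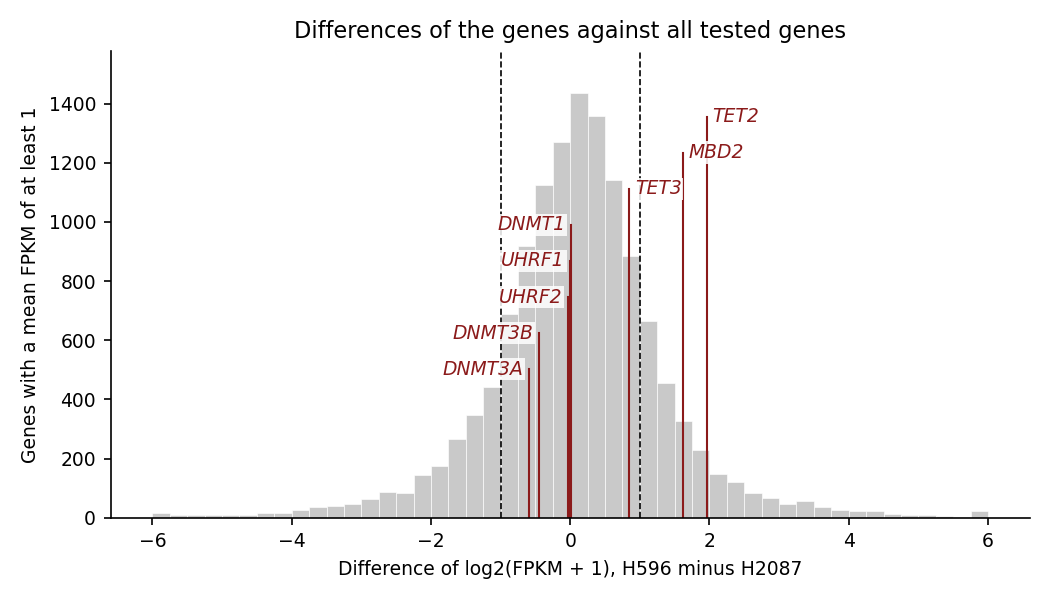
Difference of log2(FPKM + 1), H596 minus H2087, for the 13048 genes whose mean FPKM reached 1 (grey bars of width 0.25, values beyond 6 drawn in the end bars), with the 8 compared genes as red lines whose heights carry no value; dashed lines mark 2-fold. TET2 at 1.96 and MBD2 at 1.61 lie beyond the upper 2-fold line, and DNMT1, UHRF1 and UHRF2 lie near 0.

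In the order of levels, no 2 neighbours among the 9 genes had overlapping intervals in either library. In H2087 the order from the highest was DNMT1, UHRF1, DNMT3A, UHRF2, DNMT3B, MBD2, TET3, TET2 and TET1. In H596 it was DNMT1, MBD2, UHRF1, UHRF2, DNMT3A, TET2, TET3, DNMT3B and TET1. MBD2 moved from the sixth place to the second, and both TET2 and TET3 stood above DNMT3B in H596. The genes closest to TET2 in level over both libraries were TMLHE, IQCH-AS1 and BLNK, at distances of 0.03, 0.04 and 0.07 on the log2(FPKM + 1) scale, and 7 genes lay within 0.1. Those closest to UHRF1, the gene with the smallest difference, were ATG4B, PTPMT1 and C1orf174, at 0.02, 0.03 and 0.03, and 40 genes lay within 0.1. Over 2 libraries such closeness is a description of level only.

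Transcript estimates added detail that the gene values hide. In TET2, the higher level of H596 lay wholly in NM_001127208, which encodes the full-length enzyme. Its FPKM was 0.807 in H2087 from 379 counts and 7.53 in H596 from 4181 counts. NM_017628, a shorter transcript that ends at 106163928 and encodes a protein without the dioxygenase domain, stood at 0.427 FPKM in H2087 from 190 counts and at 0.152 in H596 from 80 counts. The full-length transcript held 66.6% of the TET2 counts in H2087 (95% interval, 62.6 to 70.4) and 98.1% in H596 (95% interval, 97.7 to 98.5). TET2-AS1, the gene listed across TET2, had 0 counts in both libraries.

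In DNMT3A, the lower level of H596 lay mostly in the transcripts that begin inside the gene. NM_153759, which starts at 25475184 and encodes the short protein DNMT3A2, stood at 4.63 FPKM in H2087 from 801 counts and at 0.937 in H596 from 192 counts. The other inner transcript, NM_001320893, starts at 25475000 and stood at 3.30 FPKM in H2087 and at 2.37 in H596. Its share of the DNMT3A counts was 23.4% in H2087 and 25.5% in H596, with overlapping intervals. The long transcripts NM_022552 and NM_175629 together stood at 4.29 FPKM in H2087 and at 4.96 in H596. Of these, NM_175629 alone was lower in H596, at 0.771 FPKM in H2087 and 0.411 in H596. The inner transcripts held 55.9% of the DNMT3A counts in H2087 (95% interval, 53.9 to 57.8) and 35.5% in H596 (95% interval, 33.4 to 37.7). The long transcripts held 36.2% in H2087 (95% interval, 34.3 to 38.1) and 63.5% in H596 (95% interval, 61.3 to 65.6). The noncoding NR_135490, which has the same outer start as NM_175629, was also lower in H596. It stood at 0.839 FPKM from 185 counts in H2087 and at 0.0186 from 5 counts in H596.

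In DNMT3B, exon 10, shown above, belonged to 1 of the 6 listed transcripts, NM_006892. NM_006892 had 2 counts in H2087 and 310 in H596. It held 0.128% of the DNMT3B counts in H2087 (95% interval, 0.0351 to 0.465) and 23.9% in H596 (95% interval, 21.7 to 26.3). NM_175848, which lacks exon 10 alone, was the leading transcript of H2087, with an FPKM of 5.27 from 1080 counts, against 1.41 from 341 counts in H596.

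Exons 21 and 22 encode part of the catalytic domain, and the protein made without them is known to be inactive. The 3 transcripts that carry them held 69.1% of the DNMT3B counts in H2087 (95% interval, 66.8 to 71.4) and 58.3% in H596 (95% interval, 55.6 to 60.9). NM_175849, which lacks exon 10 and both of these exons, was the leading transcript of H596, with an FPKM of 2.33 from 541 counts, against 2.01 from 394 counts in H2087. NM_175850, which has another first exon, had 0 counts in H2087, which allows up to 0.192% of the DNMT3B counts, and 104 in H596. NM_001207056 had 89 counts in H2087 and 0 in H596, which allows up to 0.231%. NM_001207055 had 0 counts in both.

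**Figure D3:**
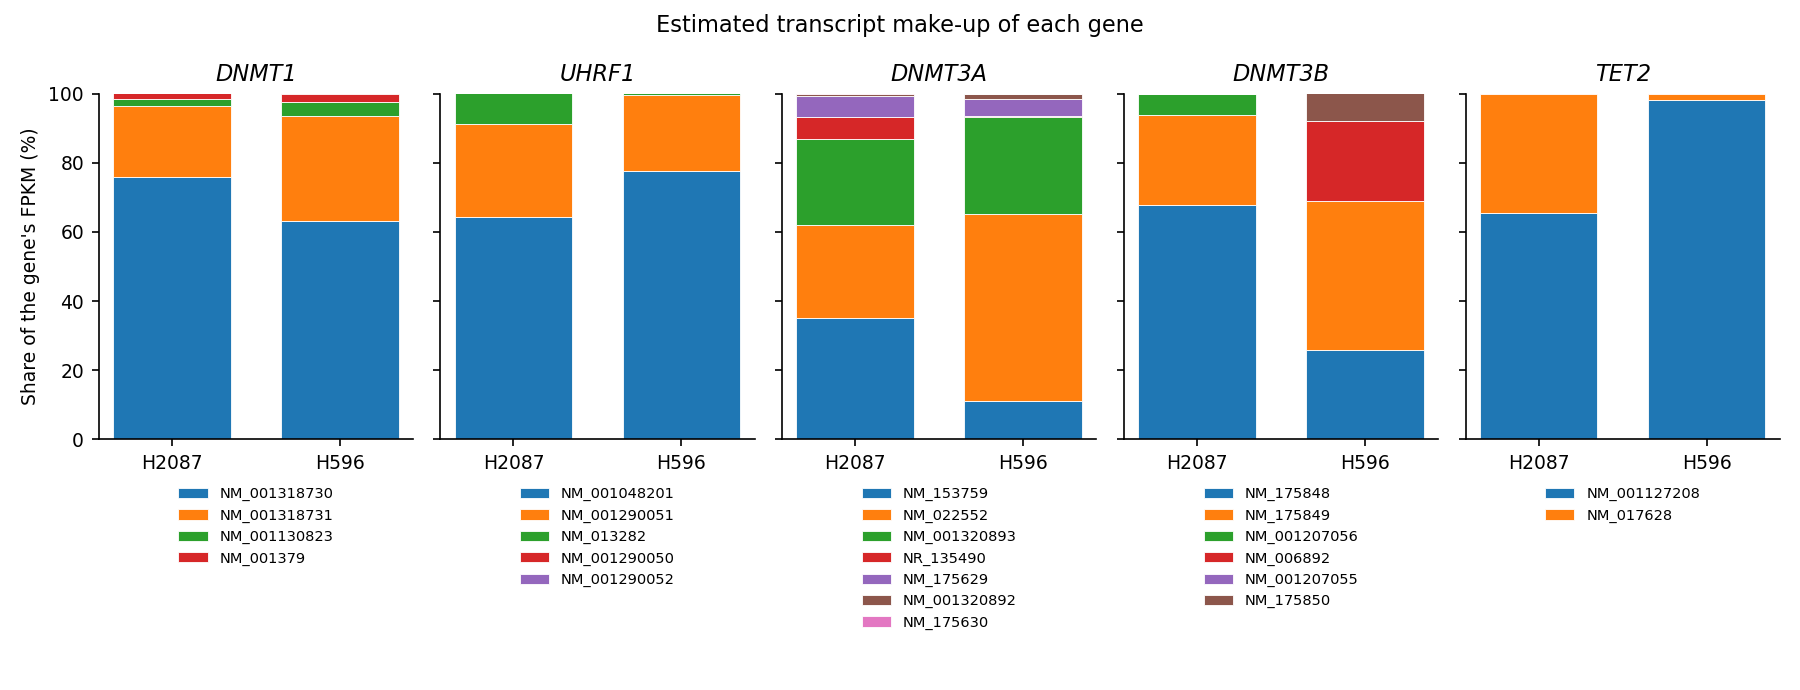
Share of each gene's FPKM (%) assigned to its transcripts in H2087 and H596, for 5 of the genes; colors are set per gene by the legend under it. NM_001127208 nearly fills the TET2 bar of H596, NM_153759 shrinks in DNMT3A, and NM_006892 appears in DNMT3B of H596.

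UHRF1 and DNMT1 had near-equal gene levels with a different division among transcripts. NM_001048201 of UHRF1, which starts at 4909442, held 64.3% of the UHRF1 counts in H2087 (95% interval, 62.6 to 65.9) and 77.9% in H596 (95% interval, 76.6 to 79.2). NM_001290051 held 26.3% of the UHRF1 counts in H2087 and 21.6% in H596. NM_013282, which starts at 4910379, had 317 counts in H2087 and 21 in H596, and NM_001290050 and NM_001290052 had 0 in both. In DNMT1, the transcripts that start at 10305730 held 96.3% of the FPKM in H2087 and 93.5% in H596. NM_001318730 was the leading one at 31.6 FPKM in H2087 and at 26.4 in H596. NM_001318731, which has the same start, went the other way, from 8.51 FPKM in H2087 to 12.7 in H596. In MBD2, NM_003927, the long form, took all but 2 of 1442 counts in H2087 and all but 1 of 5843 in H596. In UHRF2, NM_152896 led at 9.43 FPKM in H2087 and at 8.96 in H596. TET1 and TET3 were listed with 1 transcript each. How reads are split among overlapping transcripts was estimated by the submitters, and the error of that step is not part of these intervals.

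Positions were examined because neighbouring genes can differ together. Within 5 Mb of TET2, 31 other compared genes had a median difference of -0.19. Of them, 2 (6.45%) were at least 2-fold higher in H596, against 18.2% of all compared genes. The stretch around TET2 was thus not high as a whole. The 68 genes around TET3 had a median of -0.42, opposite in sign to TET3. The 29 genes around MBD2 had a median of 0.45, with 20 higher and 9 lower in H596, below the 1.61 of MBD2. Of these 29, 7 (24.1%) were at least 2-fold higher. The 67 genes around DNMT3A had a median of -0.43, near the -0.59 of DNMT3A. Around DNMT3B the median of 72 genes was 0.66, opposite in sign to DNMT3B at -0.45. DNMT1 and UHRF1, both on chromosome 19, had neighbours with medians of 0.54 and 0.28 and differences of 0.01 and 0.00 themselves. Their windows overlap and share many genes, so these medians are not independent. The highest of the 9 medians, 0.91, was that of the 16 genes around UHRF2, of which 8 were at least 2-fold higher in H596, while UHRF2 itself differed by -0.04. The 55 genes around TET1 had a median of -0.53, against 0.07 for TET1. Copy number was not measured, and its part in these values was not tested.

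**Figure D4:**
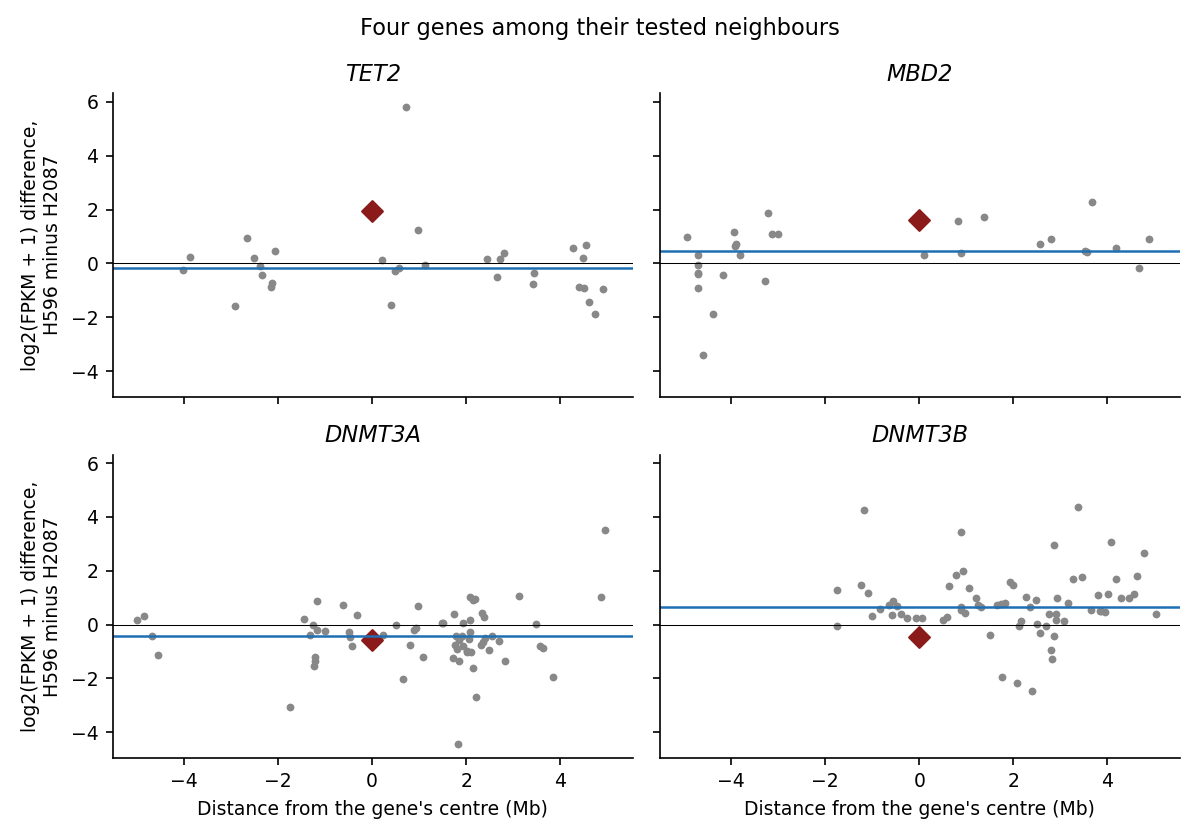
Difference of log2(FPKM + 1), H596 minus H2087, against distance in Mb for TET2, MBD2, DNMT3A and DNMT3B (red diamonds) and the other compared genes within 5 Mb (grey points); blue lines are the neighbours' medians. TET2 at 1.96 stands above a median of -0.19, and DNMT3A at -0.59 lies near a median of -0.43.

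Genes that work with the 9 were taken as lists by their textbook roles. Over 103 distinct genes, 82 reached a mean FPKM of 1. Of these, 12 were at least 2-fold higher and 11 at least 2-fold lower in H596, against 18.2% and 14.2% of all compared genes. Their median difference was -0.03, and that of all compared genes 0.12. The shares of 18.2% and 14.2% are the background for the counts of each list below.

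Of 8 partners of maintenance methylation, 0 were at least 2-fold higher and 1 was lower, with a median of -0.22. The lower one was CDCA7, the activator of the remodeler HELLS, at 25.9 FPKM in H2087 and at 8.77 in H596. PCNA, the replication clamp, chosen after its values were seen, stood at 88.7 FPKM in H2087 and at 175 in H596, a difference of 0.97. Of the 2 related enzymes, DNMT3L, the inactive cofactor of DNMT3A, had 0 counts in both libraries, and TRDMT1, which methylates transfer RNA, had 479 counts in H2087 and 90 in H596.

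Of 9 other genes listed as methyl-CpG readers, 3 were at least 2-fold higher and 0 lower, against 18.2% and 14.2% of all compared genes. The list includes MBD3, MBD5 and MBD6 as members of the MBD family, and binding to methylated DNA was not measured. The median of this list was 0.66. ZBTB4, a zinc finger reader, stood at 16.7 FPKM in H2087 and at 43.2 in H596. ZBTB33, known as Kaiso, stood at 6.14 and 14.6 FPKM. MBD3, chosen after its values were seen, stood at 26.9 and 59.4 FPKM. Unlike MBD2, it binds methylated DNA poorly. Among 11 subunits of NuRD, 2 were at least 2-fold higher, 1 was lower, and the median was -0.01. CHD3, an ATPase of the complex, stood at 34.0 FPKM in H2087 and at 88.3 in H596, and MTA2 stood at 31.3 and 70.8 FPKM. MTA1, an alternative to MTA2 in the complex, stood at 45.9 and 22.3 FPKM.

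Of 19 genes of oxidation control and base excision, 17 were compared. In H596, 3 were at least 2-fold higher and 4 lower at the same limit, and the median was -0.26. CXXC5, of the CXXC family whose member CXXC4 binds TET2, stood at 5.82 FPKM in H2087 and at 28.9 in H596. NEIL1, a DNA glycosylase, stood at 1.92 and 7.52 FPKM. NEIL2, another glycosylase, stood at 15.0 and 1.68 FPKM, in the opposite direction. XRCC1, a scaffold of base excision repair, was also higher in H596, and POLB, its DNA polymerase, and GADD45A were also lower, all past 2-fold and outside the naming rule. GADD45G, a stress protein linked to demethylation, stood at 5.69 and 0.702 FPKM. TDG, the glycosylase that removes the oxidized bases made by TET enzymes, was chosen after its values were seen and stood at 11.7 and 11.9 FPKM.

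Of 13 genes of methyl donor supply, 11 were compared, with a median of -0.35. Of the 11, 0 were at least 2-fold higher and 3 lower, against 18.2% and 14.2% of all compared genes. SHMT2 and MTHFD2, enzymes of mitochondrial folate metabolism, had the largest differences. SHMT2 had 21954 counts in H2087 and 8875 in H596, where it stood at 68.4 FPKM. MTHFD2 stood at 182 FPKM in H2087 and at 66.1 in H596. AHCYL1, a relative of the enzyme AHCY, was the other lower gene and stood at 106 and 38.3 FPKM. MAT2A, which makes the methyl donor S-adenosylmethionine, was chosen after its values were seen and stood at 150 and 117 FPKM.

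Genes known to be silenced by promoter methylation served as a further list, without any measure of their methylation here. Of 12 germline genes, 11 had 0 counts in H2087 and 9 in H596. HORMAD1, a meiotic chromosome protein, had 0 counts in H2087 and 326 in H596, or 3.03 FPKM, at least 92.1-fold higher if 3 counts per library are taken as the limit for 0. BRDT, a testis bromodomain protein, stood at 9.11 FPKM from 1494 counts in H2087 and had 0 counts in H596, at least 587-fold lower. Each library thus expressed 1 of these germline genes at an FPKM of at least 1, and not the same one.

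Of 15 genes known to be methylated in lung tumors, 10 were compared, with 2 at least 2-fold higher, 1 lower, and a median of -0.01. DAPK1, a death-associated kinase, stood at 0.0274 FPKM from 8 counts in H2087 and at 8.62 from 2912 counts in H596. RARB, a retinoic acid receptor, had 0 counts in H2087 and an FPKM of 5.67 in H596, at least 278-fold higher. GSTP1, a glutathione transferase, stood at 434 FPKM in H2087 and had 0 counts in H596, at least 7829-fold lower. Of the 15, 6 had 0 counts in H2087 and 5 in H596, with both directions present in the list. Genes that pass a filter on the mean through 1 library only must differ between the libraries, so the counts of the last 2 lists are descriptions of these named genes.

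**Figure D5:**
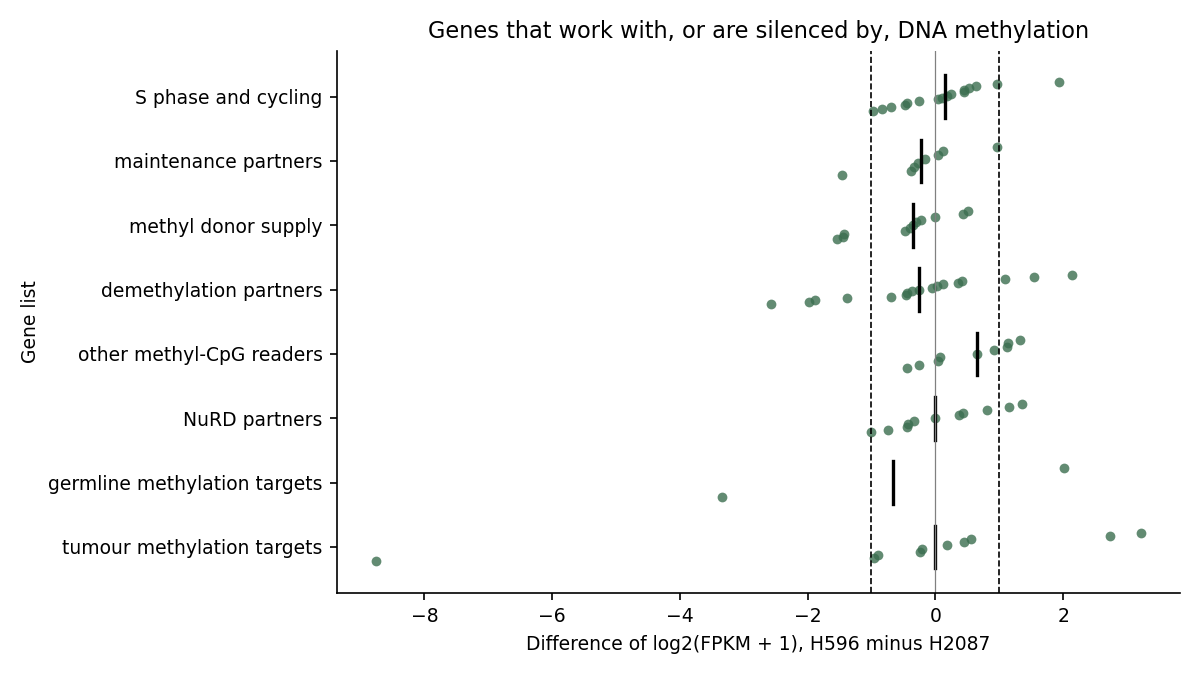
Difference of log2(FPKM + 1), H596 minus H2087, for the compared genes of each list (green points), with the list median as a black bar and dashed lines at 2-fold. The median of the genes listed as other methyl-CpG readers is 0.66 and that of methyl donor supply -0.35, and GSTP1 is the leftmost point, at -8.76.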

How the data were processed

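RNA-seq of 1 H2087 library and 1 H596 library was used. Per the labels and the study's methods, stranded mRNA libraries were trimmed with Trimmomatic, aligned to hg19 with HISAT2 2.0.5 and quantified with StringTie 1.3.3b for RefSeq transcripts. The authors' read counts are whole numbers and were treated as rounded estimated counts, since their derivation is not given in the sources used here. The authors' FPKM values are corrected for length and library size. If mates were counted separately, the intervals are too narrow. Whether strand was used in counting is not given in the sources used here, so reads of overlapping genes may be shared.

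From the deposited FPKM, log2(FPKM + 1) was subtracted, H596 less H2087, with 13048 genes passing a filter of mean FPKM 1 or more. With 1 library per cell line there was no test and no p-value.

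The members and lists were chosen with earlier results of these data known. Named were all members, most of their transcripts and, of each list, the 2 genes with the largest difference past 2-fold in each direction. Also named were list genes at 0 counts in 1 library only with an FPKM of at least 1 in the other. The 3 genes nearest to the members with the largest and smallest difference were named too. Alternatives were TPM, TMM scaling (edgeR 4.0.16), DESeq2 1.42.0 size factors, centring on the median, a pseudocount of 0.1, other filters, a 1.5-fold limit and transcript values. The 2-fold call and the Wilson intervals were tested on simulated data. Tools were Python 3.11.15 with numpy 2.4.6 and pandas 2.3.3, and R 4.3.3.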

Additional observations from a re-analysis of the deposited data

How the results depend on the processing

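TET2 and MBD2 stayed at least 2-fold higher in H596 under all 7 alternatives for each gene, with differences of 1.84 to 2.54 for TET2 and up to 1.87 for MBD2. Among the 7, the sum over transcripts had to give the main value, since the gene values were such sums. TET3 was 0.73 at its lowest and passed 2-fold with TPM alone. DNMT3A ranged from -0.71 to -0.02 and DNMT3B from -0.91 to -0.31, both below 0 throughout. The value of -0.02 for DNMT3A came from the highest single transcript, which is another transcript in each library. DNMT1 ranged from -0.25 to 0.19, UHRF1 from -0.13 to 0.25 and UHRF2 from -0.16 to 0.14, so their signs depended on the scaling, and the ends of -0.25 and 0.25 came from the highest single transcript. TET1 ranged from -0.05 to 0.24.

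With a mean FPKM of at least 5, 1 member was at least 2-fold higher, since TET2 was filtered out, and 1213 genes were at least 2-fold lower, since fewer genes were compared. With a 1.5-fold limit, 3998 genes and 3126 genes were higher and lower, 1 member was lower, and 18 genes of the lists were lower. The median difference of all compared genes, 0.12 as deposited, was 0.30 with TPM and 0.01 with TMM. The share of calls that were higher in H596, 56.2%, was 65.6% with TPM and 50.5% with TMM. No paired analysis was possible because H2087 and H596 were sequenced once each, and no library could be left out for the same reason. TET1 rested on the fewest counts of the 9 genes, 101 and 151, and its 2 intervals overlapped.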
